A study of Mus musculus with 8 samples.

Results

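The genes described here encode matrix metalloproteinases, which are secreted or membrane-bound proteases that cut extracellular matrix, and the tissue inhibitors that block them. They are Mmp2, Mmp3, Mmp9, Mmp10, Mmp13, Mmp14, Timp1, Timp2, Timp3 and the related protease gene Adamts1. They were found by matching these 10 symbols to the Ensembl identifiers of a table of 52636 genes, and all 10 were among the 15698 genes that passed a filter on low counts. Polyadenylated RNA was sequenced from cultured and sorted endothelial cells of mouse liver, which line its vessels. Sorted cells were alive, carried CD31 and VE-cadherin and lacked CD45, a leukocyte protein. There were 4 groups of 2 libraries: dKO cells with the inflammatory cytokines IL1B and TNFA, dKO cells without them, WT cells with IL1B and TNFA, and WT cells without. The labels do not expand dKO, and the design text speaks of deleting the ETS transcription factor genes Erg and/or Fli1. The cells had 48 hours of 4-OHT, the tamoxifen metabolite that switches on inducible Cre enzymes, and a culture of 7 days. WT cells carry the same treatment labels. Cytokines were present for the last 16 hours. The Cre line, the deleted exons and the mice's age are not stated in these labels. Nor do they say whether libraries of 1 group came from separate mice, and a p-value here measures the spread between libraries, which may be technical. Values are given for replicate 1 and then replicate 2.

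Metalloproteinases are made as inactive precursors, and other proteases, among them other metalloproteinases, cut off the inhibiting segment. TIMPs bind the active site and so set how much of the enzyme acts. In the liver, sinusoidal endothelium sits on a loose matrix, and metalloproteinases and TIMPs from endothelial, stellate and immune cells are known for their part in matrix turnover, vessel sprouting and the build-up and loss of scar. IL1B and TNFA are classical inducers of several secreted family members in connective tissue cells.

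Library totals lay between 23009062 and 26944030 counts. Erg stood at 34.7 to 91.3 CPM (counts on the scale of a common library size, with TMM scaling) in the 4 dKO libraries and at 186 to 208 CPM in the 4 WT libraries. Fli1 stood at 12.4 to 62.5 CPM in dKO and at 91.5 to 177 CPM in WT. Neither gene passed the test between genotypes, without cytokines (edgeR adjusted p = 0.0864 for Erg and 0.0678 for Fli1) or with them (0.0538 and 0.0562). Both dKO libraries numbered 2 held more Erg and Fli1 than those numbered 1, with Erg at 90.2 CPM with and 91.3 CPM without cytokines against 34.7 and 40.1 CPM. They also stood nearer to WT in a principal component analysis. Their scores on the leading component (57.1% of the variance) were 43.0 and 51.2, against 89.2 and 102.2 for those numbered 1, and WT scores lay between -85.8 and -57.6. Whether the genotype calls held without them is therefore given below, with fitted values for some of the genes only. All 10 endothelial markers were detected in every library, at 1564 to 3247 CPM summed in dKO and 5470 to 9174 CPM in WT. In bulk RNA, fewer cells of a type and less RNA per cell cannot be told apart.

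Most of these genes stood higher in dKO than in WT cells, and none passed the test as lower. Without cytokines 6 of 10 rose in dKO (Mmp3, Mmp9, Mmp14, Timp1, Timp2 and Timp3), where 13.4% of all genes tested passed as higher and 9.66% as lower. With cytokines 5 of 10 were higher in dKO (Mmp9, Mmp14, Timp1, Timp2 and Timp3), where 18.6% of all genes passed as higher and 15.4% as lower. The cytokines raised Mmp9, Mmp14 and Timp1 and lowered Timp3 in dKO cells, where 3.50% of all genes passed as higher and 2.06% as lower. In WT cells they raised Mmp3, Mmp9, Mmp13, Mmp14 and Timp1 and again lowered Timp3, where 9.72% of all genes passed as higher and 7.69% as lower. The median log2 fold change of the 10 genes was 2.01 between genotypes without cytokines, 1.35 with them, 1.67 for cytokines in dKO and 1.34 for cytokines in WT. For all genes tested the 4 medians lay between -0.01 and 0.02, near 0 because TMM scaling places them there. On library totals they lay between -0.22 and -0.07. The 10 genes were chosen with earlier results of these data known. Each comparison between genotypes shares libraries with each comparison of cytokines.

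**Figure D1:**
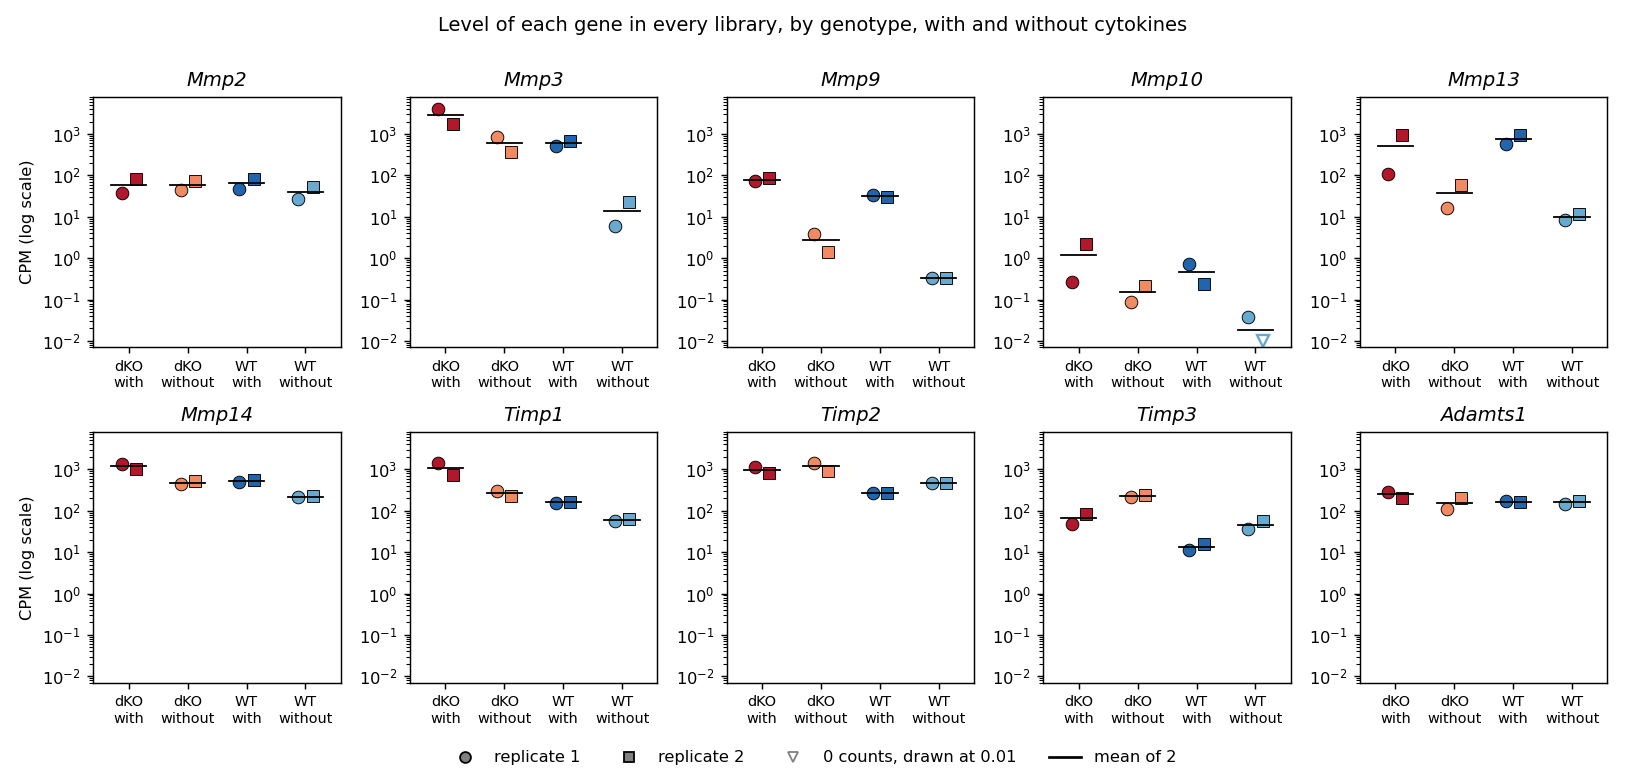
Level of each of the 10 genes in every library, in CPM on a log scale, in dKO cells with and without cytokines and WT cells with and without cytokines. Circles are replicate 1, squares replicate 2, bars the mean of 2, and the open triangle marks 0 counts. Mmp9 ran between 0.332 CPM in WT cells without cytokines and 84.3 CPM in dKO cells with them, while Adamts1 stayed between 112 and 292 CPM.

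Mmp3, Mmp10 and Mmp13 lie close together on chromosome 9 (GRCm38, GENCODE M21, plus strand). Mmp13 lies at chr9:7272514-7283331, Mmp3 at chr9:7445822-7455975 and Mmp10 at chr9:7502352-7510240. All encode secreted proteases: Mmp3 and Mmp10 are stromelysins, which cut many matrix proteins and activate other metalloproteinases, and Mmp13 is a collagenase, the main one for fibrillar collagen in rodents. The 250 bases before the RefSeq start of each (GRCm38.p6, plus strand) are shown because the means of all 3 genes were higher with cytokines in both genotypes. Timp1, whose level also went up with cytokines, is shown for contrast. Capitals mark matches on either strand to TGANTCA, the site read by AP-1 factors, and to CNGGAA, around the GGAA core bound by ETS factors such as Erg and Fli1.
Mmp3, chr9:7445572-7445821: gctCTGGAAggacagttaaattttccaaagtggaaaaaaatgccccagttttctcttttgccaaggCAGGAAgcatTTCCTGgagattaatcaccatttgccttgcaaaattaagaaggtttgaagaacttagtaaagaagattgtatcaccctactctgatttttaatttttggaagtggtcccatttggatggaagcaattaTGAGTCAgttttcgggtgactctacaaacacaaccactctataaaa
Mmp10, chr9:7502092-7502341: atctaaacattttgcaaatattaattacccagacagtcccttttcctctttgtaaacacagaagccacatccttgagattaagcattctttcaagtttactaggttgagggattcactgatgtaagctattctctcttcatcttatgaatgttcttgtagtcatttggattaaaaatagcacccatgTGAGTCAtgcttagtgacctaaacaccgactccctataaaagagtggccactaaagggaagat
Mmp13, chr9:7272264-7272513: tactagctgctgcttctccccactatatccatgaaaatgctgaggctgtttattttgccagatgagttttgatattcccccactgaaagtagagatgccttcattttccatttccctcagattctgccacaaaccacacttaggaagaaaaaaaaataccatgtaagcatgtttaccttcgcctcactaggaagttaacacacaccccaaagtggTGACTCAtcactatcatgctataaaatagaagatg
Timp1, chrX:20869916-20870165: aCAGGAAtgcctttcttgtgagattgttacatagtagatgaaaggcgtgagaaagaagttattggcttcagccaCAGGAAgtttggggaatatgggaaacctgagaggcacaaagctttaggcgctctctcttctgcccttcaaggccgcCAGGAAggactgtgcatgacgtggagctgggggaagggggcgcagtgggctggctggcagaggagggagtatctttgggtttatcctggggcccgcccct
RefSeq windows were matched for 8 of the 10 genes. None was found for Mmp2 or Mmp9, so these genes were not searched for any of the motifs. Each of these 3 genes held a single AP-1 match, TGAGTCA at 46 to 40 bases before the start in Mmp3, TGAGTCA at 63 to 57 bases in Mmp10 and TGACTCA at 35 to 29 bases in Mmp13. The windows of Mmp14, Timp1, Timp2, Timp3 and Adamts1 had 0 matches, and 6.75% of 32817 mouse windows of that length had at least 1. CNGGAA matched 3 times in Mmp3, 3 times in Timp1, once in each of Mmp14, Timp2 and Timp3, and 0 times in Mmp10, Mmp13 and Adamts1, where 54.2% of windows had a match. A match needs a C 2 bases before GGAA, and the windows of Mmp10 and Mmp13 hold ggaa without it. Their 0 matches therefore do not show that an ETS core is absent. GGG and TTTCC with 2 free bases between them, a form of the NF-kappaB site, matched in 0 of the 8 windows and in 1.41% of all windows. No match overlapped a match of another motif.

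Of the 10 genes, Mmp3 had the largest fitted difference between genotypes without cytokines. It had 4129.9 and 1700.1 CPM in dKO cells with cytokines and 844 and 372 CPM in dKO cells without. WT cells had 500.2 and 691 CPM with cytokines and 6.06 and 22.1 CPM without. The WT libraries without cytokines were far below all others, and the ranges of untreated dKO and cytokine-treated WT cells overlapped. Without cytokines Mmp3 averaged 43.1-fold more in dKO than in WT (log2 fold change 5.43 ± 0.89 SE, edgeR adjusted p = 0.0129). With cytokines both dKO libraries again lay above both WT libraries, 4.89-fold on average, but the test was not passed (log2 2.29 ± 0.77 SE, adjusted p = 0.0646). It passed under DESeq2, with the 4 libraries fitted alone and without either WT library that lacked cytokines (lowest adjusted p = 0.0224), and not in the other 11 alternative fits. Without dKO replicate 1 with cytokines the log2 difference was 1.51 (adjusted p = 0.277). The cytokines raised Mmp3 42.2-fold in WT (log2 5.40 ± 0.89 SE, adjusted p = 0.0145). In dKO cells the 4.79-fold higher mean did not pass (log2 2.26 ± 0.77 SE, adjusted p = 0.153), and passed with same-numbered libraries as pairs (log2 2.24, adjusted p = 0.0167) but in none of the other 14 alternative fits. That change was 1.48 on the log2 scale without dKO replicate 1 with cytokines and 2.97 without dKO replicate 1 that lacked them. Leaving out WT replicate 2 without cytokines moved the untreated genotype difference to 6.65 on the log2 scale and the WT cytokine change to 6.62. Leaving out WT replicate 1 without cytokines moved them to 4.77 (adjusted p = 0.0621) and 4.75 (adjusted p = 0.0713), and leaving out dKO replicate 1 without cytokines moved the genotype difference to 4.71 (adjusted p = 0.0512).

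Mmp13 was a cytokine-raised gene in WT cells and a gene of scattered levels in dKO cells. It reached 105 and 947 CPM in dKO cells with cytokines and 16.4 and 59.3 CPM in dKO cells without. WT cells held 589 and 963 CPM with cytokines and 8.20 and 11.9 CPM without. In each dKO group the library numbered 2 was the higher, and under cytokines it lay inside the WT range while replicate 1 lay below it. The cytokines raised Mmp13 77.1-fold in WT (log2 6.27 ± 1.297 SE, adjusted p = 0.0273). In dKO the mean was 13.9-fold higher with cytokines (log2 3.80 ± 1.15 SE, adjusted p = 0.123), which passed with same-numbered libraries as pairs (log2 3.38, adjusted p = 0.0107) and under DESeq2 (adjusted p = 0.0045) but in none of the other 13 alternative fits. It was 1.47 on the log2 scale without dKO replicate 2 with cytokines (adjusted p = 0.358) and 5.0 without dKO replicate 2 that lacked them (adjusted p = 0.165). Between genotypes it did not pass without cytokines (log2 1.91, adjusted p = 0.242) or with them (log2 -0.56, adjusted p = 0.697). The untreated difference was 0.71 without untreated dKO replicate 2 and 2.55 without untreated dKO replicate 1, and 0.69 without both dKO libraries numbered 2. Without both dKO libraries numbered 2, Mmp13 under cytokines was lower in dKO than in WT (log2 -2.87, adjusted p = 0.0151). Leaving out dKO replicate 1 with cytokines turned that difference to 0.28.

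Mmp10 was close to the limit of detection. Its raw counts were 6 and 49 in dKO cells with cytokines and 2 and 5 in dKO cells without, and 16 and 6 in WT cells with cytokines and 1 and 0 in WT cells without. It passed the test in 0 of the 5 contrasts. In WT the ratio of cytokine-treated to untreated cells was 25.9 (95% exact counting interval 4.19 to 1070.0), and with pairs the change passed in WT (log2 4.37, adjusted p = 0.0103) and in dKO (log2 2.89, adjusted p = 0.0171). The filter on low counts kept Mmp10 only through the libraries with 49 and 16 counts, both with cytokines. That favours the cytokine-treated side, so this ratio and these paired calls are no support for a cytokine rise. The dKO to WT ratio without cytokines was 8.56 (interval 1.10 to 386). Such intervals pool the libraries of a group and cover counting error only, not the spread between libraries. PCR copies of a molecule cannot be recognised here, so even the counting error may be larger. Of the 50-base stretches of its exons, 8.37% also occur in Mmp3, which was far more abundant, so its counts are uncertain.

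Mmp9 and Mmp2 encode the gelatinases, secreted enzymes that cut denatured collagen and the type of collagen found in basement membrane. Mmp9 (chr2:164940780-164955850, plus strand) is the member typically switched on by inflammatory signals. It had 74.5 and 84.3 CPM in dKO cells with cytokines and 3.93 and 1.41 CPM in dKO cells without. WT cells had 33.3 and 30.5 CPM with cytokines and 0.332 and 0.337 CPM, or 9 and 10 counts, without. The 4 groups did not overlap. Cytokines raised it 29.7-fold in dKO (log2 4.90 ± 0.44 SE, adjusted p = 0.00664) and 95.3-fold in WT (log2 6.55 ± 0.52 SE, adjusted p = 0.00235). The WT change passed in all 15 alternative fits, and the dKO change in all but the fit of 4 libraries alone (adjusted p = 0.107). Mmp9 was also 7.99-fold higher in dKO than in WT without cytokines (log2 2.97 ± 0.53 SE, adjusted p = 0.0147) and 2.49-fold higher with them (log2 1.32 ± 0.37 SE, adjusted p = 0.0372). Without dKO replicate 1 the untreated difference was 2.05 on the log2 scale, and the cytokine change in dKO 5.80.

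Mmp2 (chr8:92827291-92853420, plus strand), a gelatinase usually made without stimulation, did not pass in any of the 5 contrasts. It had 38.4 and 79.95 CPM in dKO cells with cytokines, 45.4 and 72.7 CPM in dKO cells without, 45.9 and 83.8 CPM in WT cells with and 26.8 and 52.5 CPM in WT cells without. Replicate 2 was higher than replicate 1 in all 4 groups, and all groups overlapped. Within same-numbered libraries the cytokine-treated WT cells held 1.72-fold and 1.60-fold the level of untreated ones, and in the paired fit this passed (log2 0.72, adjusted p = 0.00115). In dKO cells the pairs gave 0.846-fold and 1.10-fold.

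Mmp14 encodes a membrane-anchored metalloproteinase that cuts fibrillar collagen at the cell surface and activates the Mmp2 precursor with the help of Timp2. It lies at chr14:54431612-54445364 (plus strand). Its level was 1362 and 1015 CPM in dKO cells with cytokines and 438 and 515 CPM in dKO cells without. In WT cells it was 487 and 565 CPM with cytokines and 210.0 and 224 CPM without. Untreated dKO cells overlapped with cytokine-treated WT cells, and all other groups were apart. Mmp14 rose by like factors in each comparison: 2.20-fold in dKO over WT without cytokines (log2 1.14 ± 0.18 SE, adjusted p = 0.00915), 2.26-fold with them (log2 1.18 ± 0.18 SE, adjusted p = 0.00562), 2.49-fold with cytokines in dKO (log2 1.32 ± 0.18 SE, adjusted p = 0.0170) and 2.43-fold with cytokines in WT (log2 1.28 ± 0.18 SE, adjusted p = 0.00736). The interaction was 0.04 ± 0.25 SE on the log2 scale (adjusted p = 0.9802).

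**Figure D2:**
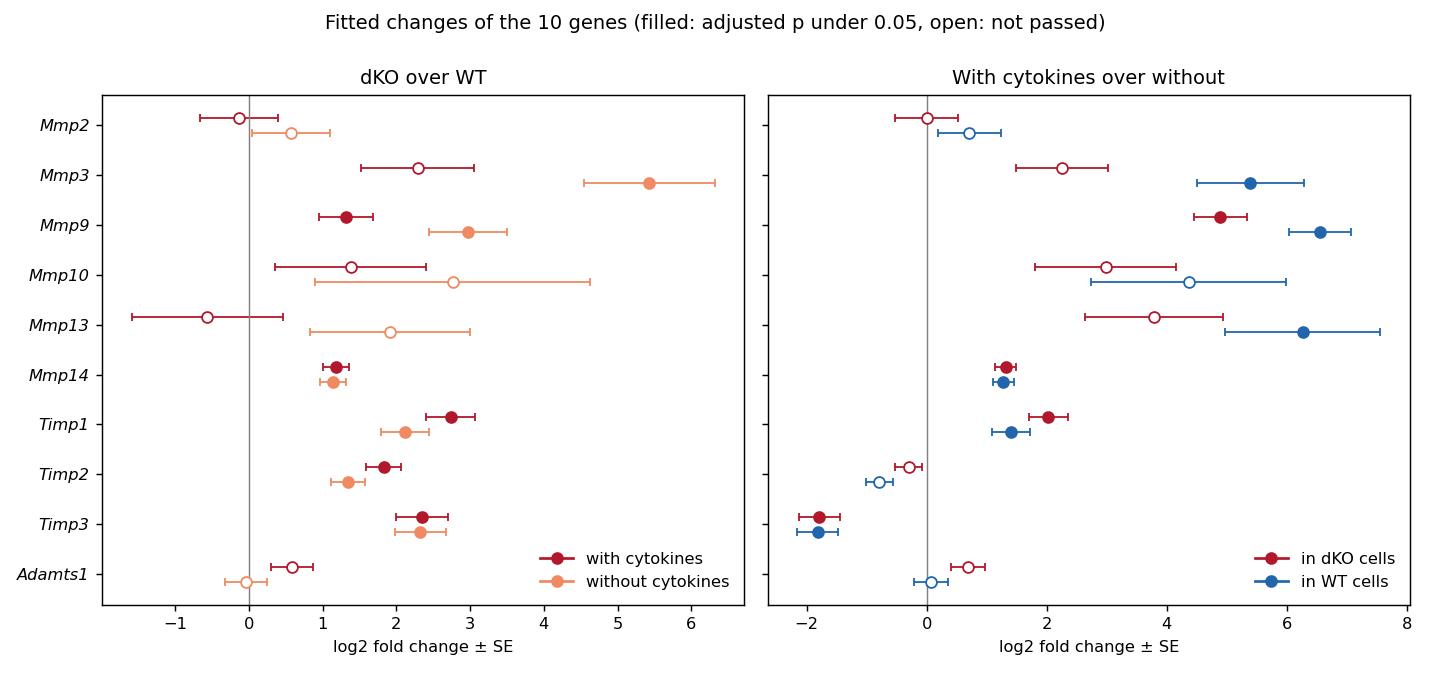
Fitted log2 fold changes with standard errors of the 10 genes. Left, dKO over WT with and without cytokines; right, with over without cytokines in dKO and WT cells; filled points have an adjusted p under 0.05. Timp1, Timp2, Timp3 and Mmp14 have similar genotype changes with and without cytokines, and the error bars of Mmp10 and Mmp13 are the widest.

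The inhibitor Timp1 followed Mmp14 in direction, with larger changes. It encodes a soluble inhibitor of most secreted metalloproteinases, known as a marker of fibrosis in liver, and lies at chrX:20870166-20874735 (plus strand) inside Syn1, with which it shares no exon base and which had at most 2.36 CPM. Timp1 had 1439.7 and 713 CPM in dKO cells with cytokines and 294 and 233 CPM in dKO cells without. WT cells held 156 and 167 CPM with cytokines and 57.6 and 63.9 CPM without. The 4 groups did not overlap, and both untreated dKO libraries lay above both cytokine-treated WT libraries. Timp1 was 4.33-fold higher in dKO without cytokines (log2 2.12 ± 0.33 SE, adjusted p = 0.00978) and 6.67-fold higher with them (log2 2.74 ± 0.33 SE, adjusted p = 0.00369). Cytokines raised it 4.09-fold in dKO (log2 2.03 ± 0.33 SE, adjusted p = 0.0253) and 2.66-fold in WT (log2 1.41 ± 0.32 SE, adjusted p = 0.0315). Without dKO replicate 1 with cytokines the genotype difference under cytokines was 2.14 and the cytokine change in dKO 1.43 on the log2 scale.

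Timp2, a soluble inhibitor that also takes part in activating Mmp2, was higher in dKO cells and not higher with cytokines. It lies at chr11:118301069-118355740 (minus strand). Its level was 1116 and 814 CPM in dKO cells with cytokines and 1434 and 940.2 CPM in dKO cells without. WT cells had 269 and 274 CPM with cytokines and 469.9 and 465 CPM without. Every dKO library was above every WT library, and the dKO groups with and without cytokines overlapped. The genotype difference was 2.54-fold without cytokines (log2 1.34 ± 0.23 SE, adjusted p = 0.0123) and 3.56-fold with them (log2 1.83 ± 0.24 SE, adjusted p = 0.00388). In WT cells the mean with cytokines was 1.72-fold lower, just short of the threshold (log2 -0.79 ± 0.23 SE, adjusted p = 0.0624), and it passed in 10 of 15 alternative fits, the paired one included (log2 -0.79, adjusted p = 0.000491). In dKO the mean was 1.23-fold lower (log2 -0.30 ± 0.23 SE, adjusted p = 0.495).

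Timp3 moved against Timp1 under cytokines. It encodes the inhibitor that binds to the matrix and, besides metalloproteinases, blocks ADAM17, the enzyme that sheds TNF, and several ADAMTS proteases. It lies at chr10:86300372-86349506 (plus strand), and 21.3% of its exon bases are shared with Syn3 on the opposite strand, which had at most 1.11 CPM. Timp3 had 49.3 and 85.6 CPM in dKO cells with cytokines and 221 and 244 CPM in dKO cells without. WT cells had 11.02 and 15.4 CPM with cytokines and 36.3 and 56.8 CPM without. Cytokine-treated dKO cells overlapped with untreated WT cells, and the other groups were apart. Cytokines lowered Timp3 3.46-fold in dKO (log2 -1.79 ± 0.34 SE, adjusted p = 0.0407) and 3.52-fold in WT (log2 -1.82 ± 0.34 SE, adjusted p = 0.0203). Between genotypes Timp3 was 5.001-fold higher in dKO without cytokines (log2 2.32 ± 0.34 SE, adjusted p = 0.00936) and 5.10-fold higher with them (log2 2.35 ± 0.35 SE, adjusted p = 0.00637). The fall in dKO was the least firm of the calls: it passed in 5 of 15 alternative fits, and without both dKO libraries numbered 2 it had an adjusted p of 0.0650.

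Adamts1 encodes a secreted protease that cuts proteoglycans such as versican and binds the growth factor VEGF. It lies at chr16:85793827-85803113 (minus strand). The gene had 292 and 206 CPM in dKO cells with cytokines, 112 and 198 CPM in dKO cells without, 168.5 and 165 CPM in WT cells with and 150.0 and 168 CPM in WT cells without. The WT groups overlapped, and the dKO group without cytokines spread to both sides of them. It did not pass in any of the 5 contrasts. The dKO mean was 0.975 times that of WT without cytokines (adjusted p = 0.938) and 1.495 times with them (adjusted p = 0.156). The difference with cytokines passed when either dKO library without them was left out (lowest adjusted p = 0.0449). With dKO replicate 1 as the only dKO library in each group, Adamts1 was lower in dKO without cytokines (log2 -0.52, adjusted p = 0.0142), higher with them (log2 0.82, adjusted p = 0.00239) and higher with than without cytokines in dKO (log2 1.38, adjusted p = 0.00451). In that fit dKO replicate 1 is assumed to vary as the WT groups do.

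The calls between genotypes without cytokines depended on the WT libraries. Without WT replicate 1 that lacked cytokines, 0 of the 10 genes and 527 of all genes passed, with adjusted p between 0.0621 and 0.0928 for the 6 genes above. Without WT replicate 2, Mmp3 and Timp3 passed and the other 4 had 0.0631 to 0.0898, with 685 of all genes. Under cytokines Mmp14, Timp1, Timp2 and Timp3 passed in all 15 alternative fits. Mmp9 lost its call without any of the 4 WT libraries and without either dKO library with cytokines (adjusted p 0.0716 to 0.164). Without both dKO libraries numbered 2, the 6 calls without cytokines and the 5 with them held, with Mmp3 at a log2 of 5.89 and Timp3 at 2.23 without cytokines.

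Cytokine calls also depended on single libraries. In WT, without each of its 4 libraries in turn, 1 or 2 of the 6 calls held, always that of Mmp9, and the lost calls had adjusted p of 0.0538 to 0.171. In dKO, 1 to 4 of the 4 calls held without each library in turn, and leaving out a WT library ended the calls of Timp1 and Timp3 (adjusted p 0.0585 to 0.0750), as did leaving out either untreated dKO library. Timp3 also lost its call without dKO replicate 1 with cytokines (adjusted p = 0.125), and Mmp14 lost its own without dKO replicate 1 without cytokines (0.0795) or either untreated WT library. With same-numbered libraries of a genotype as pairs, 7 genes passed in dKO (Mmp3, Mmp10 and Mmp13 added) and 9 in WT (Mmp2, Mmp10 and Timp2 added), where 3769 and 5943 of all genes passed. Of the added genes, Mmp10 was kept by the filter on low counts only through libraries with cytokines.

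Whether genotype changed the cytokine response was tested as an interaction, and 0 of the 10 genes and 0 of all 15698 genes passed in edgeR. Before adjustment, p was under 0.05 for 2 of the 10 genes and 1683 of all genes. DESeq2 called 0 of the 10 genes and 372 of all genes. Mmp3 had the largest term among the 10, with 4.89-fold and 4.57-fold between same-numbered dKO libraries and 82.6-fold and 31.2-fold between WT libraries (log2 -3.14 ± 1.07 SE, adjusted p = 0.393). With pairs it passed (log2 -3.36, adjusted p = 0.0418), as did Mmp2 (log2 -0.77, adjusted p = 0.0255), among 947 of all genes. For Mmp9 the pairs gave 18.9-fold and 59.6-fold in dKO and 100.1-fold and 90.6-fold in WT (log2 -1.66 ± 0.65 SE, adjusted p = 0.448). Without untreated dKO replicate 1 the Mmp9 term was -0.73 (adjusted p = 0.532). Without both dKO libraries numbered 2 it passed (log2 -2.29, adjusted p = 0.0267), as did Adamts1 (log2 1.34, adjusted p = 0.0280), and Mmp9 passed in no other alternative fit. For Mmp13 the term was -2.47 ± 1.49 SE (adjusted p = 0.629, and 0.0761 with pairs), and for Timp3 0.03 ± 0.46 SE (adjusted p = 0.995). A term that missed the threshold does not show equal responses.

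**Figure D3:**
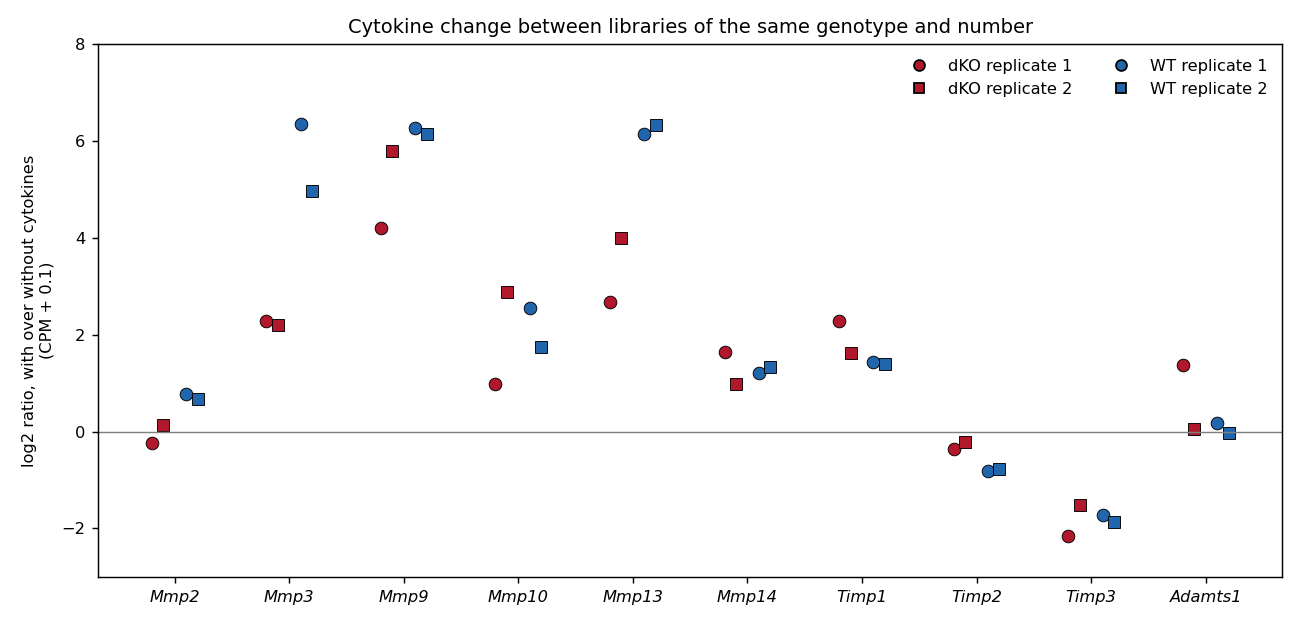
Log2 ratio of CPM with over without cytokines, 0.1 CPM added to each, between libraries of the same genotype and number, for the 10 genes. Red points are dKO and blue points WT, circles replicate 1 and squares replicate 2. Both dKO points of Mmp3, at 2.29 and 2.19, lie below both WT points, at 6.35 and 4.96, while those of Timp3 and Mmp14 mix with the WT points.

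Levels of different genes were compared per length, as CPM per kilobase of annotated exon. In untreated WT cells the inhibitors led, with Timp2 at 120.0 ± 0.811 and Timp1 at 68.4 ± 5.05 (SD, n = 2 here and below), followed by Mmp14 at 36.4 ± 1.66 and Adamts1 at 30.0 ± 2.44, none of which overlapped. Mmp2, Mmp3, Timp3 and Mmp13 came next, at 11.8 ± 5.39, 7.83 ± 6.32, 5.72 ± 1.78 and 3.77 ± 0.988, each overlapping with its neighbour, and Mmp9 and Mmp10 were last. In WT cells with cytokines Mmp3 (331 ± 75.0) and Mmp13 (290.3 ± 98.8) led and overlapped, ahead of Timp1 (182 ± 9.01). In dKO cells without cytokines Mmp3 (338 ± 185), Timp2 (305 ± 89.6) and Timp1 (297 ± 48.8) overlapped at the top. In dKO cells with cytokines Mmp3 (1619 ± 954) and Timp1 (1212 ± 578) led and overlapped, and Timp2 stood at 248 ± 54.8. Mmp3 made up 45.3% of the sum over the 10 genes there and 2.76% in untreated WT cells.

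The ratio of metalloproteinase to inhibitor transcripts was higher with than without cytokines in every library of both genotypes. The 6 Mmp genes summed to 2594 and 1517 CPM per kilobase in dKO cells with cytokines and 563 and 337 in dKO cells without, and to 603 and 872 in WT cells with cytokines and 49.7 and 70.0 in WT cells without. The 3 Timp genes summed to 1914 and 1023 in dKO cells with cytokines and 726 and 533 in dKO cells without, and to 246 and 260.4 in WT cells with cytokines and 189.9 and 198 in WT cells without. The Mmp sum over the Timp sum was therefore 1.36 and 1.48 in dKO cells with cytokines and 0.775 and 0.632 in dKO cells without. It was 2.45 and 3.35 in WT cells with cytokines and 0.262 and 0.353 in WT cells without. The 4 groups did not overlap in this ratio: dKO cells lay above WT cells without cytokines and below them with cytokines. The ratio is of transcripts, not of protein or activity, and was not tested.

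**Figure D4:**
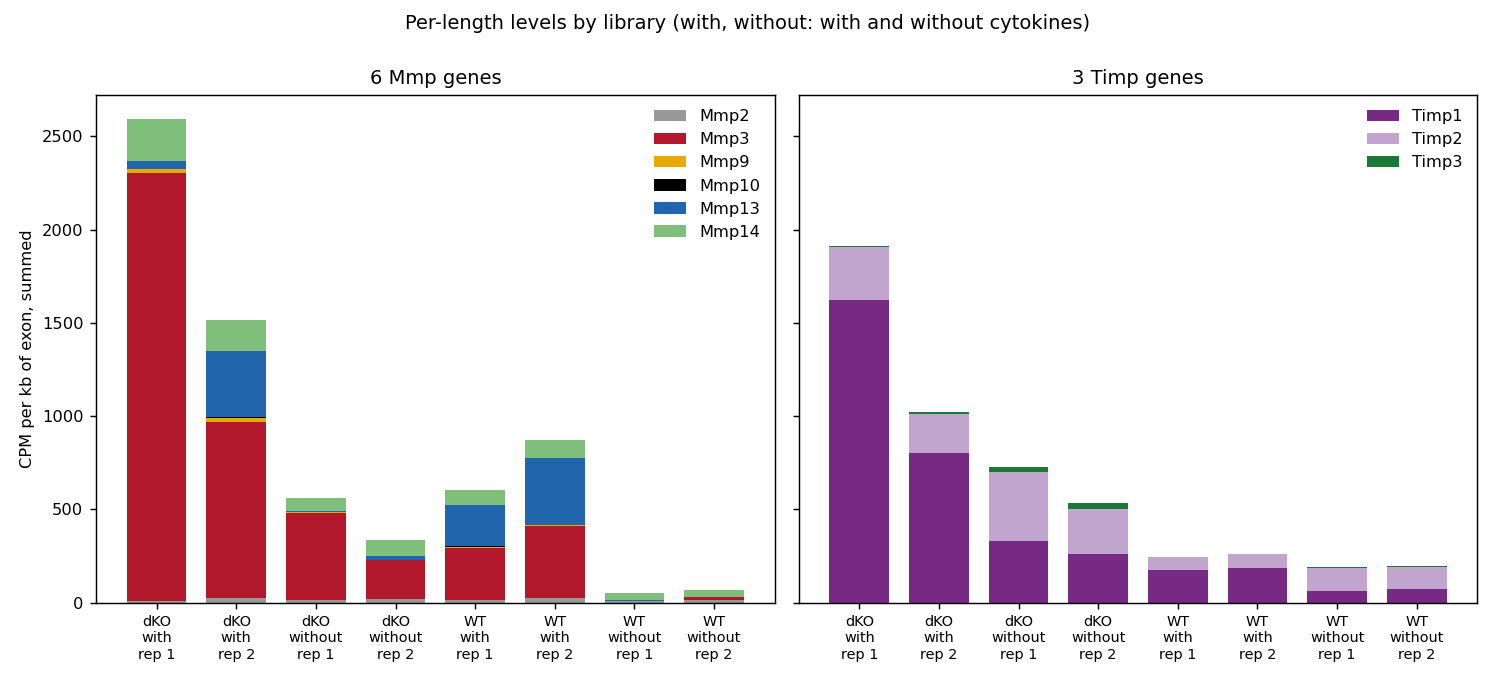
Summed CPM per kilobase of exon of the 6 Mmp genes (left) and the 3 Timp genes (right) in each library, in dKO cells with and without cytokines and WT cells with and without cytokines. Mmp3 fills most of the Mmp bar in all 4 dKO libraries, Mmp13 is visible in dKO replicate 2 and in WT cells with cytokines, and Timp1 fills most of the Timp bar with cytokines.

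Markers of other cell types moved with genotype, and some with cytokines in WT cells. Of the 12 markers of stellate cells, pericytes and fibroblasts, 10 were tested and 4 were higher in dKO, both without and with cytokines (Pdgfra, Pdgfrb, Col1a1 and Lum). Of all genes tested, 13.4% passed as higher in dKO without cytokines and 18.6% with them. The other 6 did not pass, and 2 of the 10 lay the other way in each comparison between genotypes. Without cytokines these were Thy1, at 6.70 and 31.6 CPM in dKO and 90.95 and 128 CPM in WT, and Rgs5. The latter had 2.99 and 0.873 CPM in dKO and 6.76 and 9.84 CPM in WT. Under cytokines they were Thy1, at 4.95 and 15.15 CPM in dKO and 38.6 and 58.3 CPM in WT, and Acta2. Acta2 had 2.135 and 6.27 CPM in dKO and 6.17 and 6.165 CPM in WT. With cytokines in WT, Pdgfra was 10.04-fold higher (adjusted p = 0.00838), Pdgfrb 6.62-fold (adjusted p = 0.00236) and the cholangiocyte marker Sox9 3.19-fold (adjusted p = 0.0178). Sox9 was scarce there, at a mean of 1.02 CPM with and 0.318 CPM without cytokines. The endothelial sum in WT was 5537 and 5470 CPM with cytokines and 9072 and 9174 CPM without, with 1 of 10 markers passing as lower, where 7.69% of all genes did. That marker was Eng, at 1041 and 940.5 CPM with and 3354 and 3214 CPM without cytokines. Cdh5 lay the other way, at 1442 and 1390 CPM with and 1233 and 1307 CPM without. The stellate, pericyte and fibroblast sum was 14620 to 17510 CPM in dKO cells with cytokines and 12940 to 15780 CPM without, and 9984 to 10850 CPM in WT cells with and 9282 to 9446 CPM without. Most of each sum was Dcn, and Lrat had 0 counts in 6 of 8 libraries. Of the hepatocyte markers only Ahsg exceeded 1 CPM, at 81.8 to 226 CPM in dKO and at most 0.480 CPM in WT. Cholangiocyte and mesothelial markers summed to at least 18.4 CPM in each dKO library and at most 3.07 CPM in WT. Nearly all of the dKO sum was Sox9, Wt1 and Krt19, while Krt7, Epcam, Msln and Upk3b had at most 0.2495 CPM in any dKO library. Neutrophils and macrophages are known sources of Mmp9, and neutrophil markers summed to 1.83 to 5.95 CPM in dKO and 0.406 to 2.29 CPM in WT, with S100a9 at 0 counts in all 8 libraries. Most of the dKO sum was Camp, at 1.12 to 5.09 CPM in dKO and at most 0.5105 CPM in WT. S100a8 lay the other way with cytokines, at 0.273 and 0.265 CPM in dKO and 1.94 and 1.41 CPM in WT. Leukocyte markers summed to 4.62 to 10.9 CPM in dKO and 5.93 to 8.29 CPM in WT, with Tyrobp at 0 counts in all 8. The part of these markers, and of the lower endothelial markers, in the differences above was not tested.

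Other genes of the system were counted in lists chosen with earlier results of these data known. Of 13 further metalloproteinase genes tested, 5 were higher and 0 lower in dKO without cytokines (median log2 0.95), and 7 were higher and 1 lower with them (median 1.19). With cytokines 0 were higher and 1 lower in dKO, and 2 higher and 2 lower in WT. Of all genes tested, 13.4% passed as higher and 9.66% as lower in dKO without cytokines, and 18.6% and 15.4% with them. For cytokines the shares were 3.50% and 2.06% in dKO and 9.72% and 7.69% in WT. Mmp23 averaged 56.1 ± 21.8 CPM in dKO and 7.42 ± 0.992 CPM in WT without cytokines (7.57-fold, adjusted p = 0.0029). Mmp15, a membrane-anchored relative of Mmp14, had 17.7 ± 4.71 CPM in dKO and 3.62 ± 0.265 CPM in WT without cytokines (4.89-fold, adjusted p = 0.00373), and cytokines lowered it 2.59-fold in dKO (adjusted p = 0.0305).

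Of 10 other ADAMTS genes tested, 4 were higher and 0 lower in dKO without cytokines, and 3 were higher and 2 lower with them. Cytokines raised 3 and lowered 0 in dKO, and raised 4 and lowered 2 in WT. The shares of all genes between genotypes were 13.4% higher and 9.66% lower without cytokines, and 18.6% and 15.4% with them. Cytokines raised 3.50% and lowered 2.06% of all genes in dKO, and 9.72% and 7.69% in WT. Adamts4, a proteoglycan-cutting relative of Adamts1, was raised by cytokines to 978 ± 446 CPM in dKO, against 73.4 ± 13.4 CPM without (13.3-fold, adjusted p = 0.0091). In WT it reached 478 ± 120 CPM with cytokines and 26.6 ± 1.67 CPM without (17.9-fold, adjusted p = 0.00323). Adamts2, which trims procollagen, was 10.5-fold higher in dKO without cytokines (57.4 ± 11.2 against 5.48 ± 0.121 CPM, adjusted p = 0.000629).

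Of 19 activators, inhibitors and binding partners, 6 were higher and 3 lower in dKO without cytokines and 7 higher and 4 lower with them. Cytokines raised 3 and lowered 1 in dKO and raised 6 and lowered 3 in WT. Among all genes the shares between genotypes were 13.4% higher and 9.66% lower without cytokines, and 18.6% and 15.4% with them. For cytokines they were 3.50% raised and 2.06% lowered in dKO, and 9.72% and 7.69% in WT. Lrp1, the endocytic receptor that clears proteases bound to inhibitors, had 233 ± 48.7 CPM in dKO and 3.80 ± 0.220 CPM in WT without cytokines (61.4-fold, adjusted p = 0.000351). Lcn2, which forms a complex with Mmp9 in humans, had 12093 ± 5002 CPM in dKO and 1276 ± 232 CPM in WT without cytokines (9.48-fold, adjusted p = 0.00401). Cd44, a surface anchor of Mmp9, had 775 ± 419 CPM with and 73.5 ± 22.97 CPM without cytokines in dKO (10.6-fold, adjusted p = 0.0207), and 604 ± 125 and 71.8 ± 17.5 CPM in WT (8.42-fold, adjusted p = 0.0111).

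Of 16 matrix substrate genes, 3 were higher and 2 lower in dKO without cytokines, 4 higher and 2 lower with them, 1 higher and 0 lower with cytokines in dKO, and 3 higher and 1 lower with cytokines in WT. Among all genes, 13.4% were higher and 9.66% lower in dKO without cytokines and 18.6% and 15.4% with them, and the counts between genotypes are close to these shares. Cytokines raised 3.50% and lowered 2.06% of all genes in dKO, and 9.72% and 7.69% in WT. Vcan, which encodes versican, a substrate of Adamts1 and Adamts4, had 51.0 ± 20.1 CPM with and 8.82 ± 0.464 CPM without cytokines in dKO (5.78-fold, adjusted p = 0.0280), and 56.4 ± 26.5 and 4.41 ± 0.708 CPM in WT (12.8-fold, adjusted p = 0.0056). Of 11 ADAM genes, 4 were higher and 0 lower in dKO without cytokines and 4 higher and 1 lower with them, and cytokines raised 1 in dKO, and raised 2 and lowered 1 in WT. Adam17, the enzyme that Timp3 blocks, was raised by cytokines to 221 ± 0.979 CPM in dKO, against 123 ± 8.27 CPM without (1.79-fold, adjusted p = 0.00901). In WT it had 258 ± 0.778 CPM with and 152 ± 5.09 CPM without cytokines (1.69-fold, adjusted p = 0.00454). The interaction passed for 0 genes of these 5 lists.

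The genes whose pattern was most like each of the 10 were found by Pearson's r of log2 CPM over the 8 libraries, among about 9930 genes of at least 10 CPM in a group. The 8 points are 4 groups of 2, so r mostly reflects the group levels, and it is a description only. Mmp3 was most like Dram1 (r = 0.992) and Slc39a14 (0.991). Mmp9 was most like Birc2 and Mtmr7 (0.991 each), and Mmp13 most like Prmt2 (0.990). Mmp14 was closest to Gstcd (0.992), and Timp1 to Oaf (0.997) and Ddit4 (0.995). Timp2 was closest to Scp2 (0.998) and Thra (0.997), and Timp3 to Fam213a (0.992). The 3 genes with 0 calls had looser partners, Mmp10 with Cdk2ap2 (0.963), Adamts1 with Ldlrad4 (0.975) and Mmp2 with Pde9a (0.922). No gene of the 10 was among the 2 nearest of another.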

How the data were processed

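Raw read counts per Ensembl gene were taken as the authors deposited them, 1 table with 8 libraries, whole numbers with no normalization seen. FastQC 0.11.5, STAR 2.7.6a and the build GRCm38 are named, without roles, per the submitters' processing notes. The counting program, its annotation release and the strand setting are not stated in the labels or headers. An unstranded or a stranded kit was used per the labels' protocols, so reads of overlapping opposite genes may be shared. Per the labels, 4-OHT was given both in the medium and to mice, which was not settled.

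Symbols and positions are from GENCODE M21 (52403 of 52636 identifiers), and promoter windows from RefSeq. In R 4.3.3, edgeR 4.0.16 was fitted with TMM scaling, its filter by group (15698 genes kept) and robust quasi-likelihood, 1 coefficient per group, all 8 libraries, 4 residual degrees of freedom and a common coefficient of variation of 24.3%. Tests were two-sided, adjusted by Benjamini-Hochberg over all genes, with a threshold of 0.05. Fold values are ratios of mean CPM, and log2 values come from the fit. All 10 members, Erg and Fli1, and the up to 3 largest changes of each list per contrast with at least 1 CPM in a group, could be named. Markers named beyond these were chosen after their values were seen. Members and lists were chosen with earlier results of these data known. The fits were tested on simulated counts with changes in untreated dKO cells only, the same spread for every gene and no pairing. That setting is simpler than these data, so it does not show how the fits perform here.

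Alternatives were DESeq2 1.42.0, other scalings, no filter, the 4 libraries alone, a replicate block, and left-out libraries. Deviations of same-numbered libraries from their group means correlated at 0.689 in dKO and 0.434 in WT across genes, and at 0.0168 to 0.134 across genotypes. Column names of cytokine libraries extend those of untreated ones. Same-numbered libraries of 1 genotype were treated as pairs in the block, on these data; with 2 libraries a group, both pairs of a genotype share 1 correlation.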

Additional observations from a re-analysis of the deposited data

Results flagged for a closer look

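Mmp3 and Mmp2 responded to cytokines differently in dKO and WT cells when same-numbered libraries of a genotype were fitted as pairs. The difference of the log2 changes, dKO minus WT, was -3.36 for Mmp3 (edgeR adjusted p = 0.0418) and -0.77 for Mmp2 (adjusted p = 0.0255). Both dKO pairs of Mmp3 changed less than both WT pairs, 4.89-fold and 4.57-fold against 82.6-fold and 31.2-fold. For Mmp2 the dKO pairs had 0.846-fold and 1.10-fold, against 1.72-fold and 1.60-fold in WT. Without pairing neither passed (adjusted p = 0.393 and 0.796). Of all genes tested, 947 passed with pairing and 0 without. The paired fit adds coefficients and so has fewer residual degrees of freedom than the 4 of the main fit.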

How the results depend on the processing

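Calls of the 10 genes between genotypes numbered 6 without cytokines (0 to 6 when each library was left out in turn) and 5 with them (4 to 6). For cytokines they numbered 4 in dKO (1 to 4) and 6 in WT (1 to 7), and for the interaction 0 (0 in each). With the replicate block the counts were 7 and 5 between genotypes, 7 in dKO, 9 in WT and 2 for the interaction. Across genotypes the correlation of same-numbered libraries was 0.0311 without cytokines and 0.134 with them, over 2 same-numbered pairs each, which was not taken as pairing, so for those comparisons the block is given here alone. It added Mmp2 without cytokines (log2 0.62, adjusted p = 0.0121), whose replicate 2 was the higher in all 4 groups, and changed no other call. In the 4 libraries alone, 0 passed for cytokines in dKO. With no filter on low counts, 3 passed for cytokines in WT, and without both dKO libraries numbered 2, 2 passed for the interaction. With no filter, 2434 of all genes passed for cytokines in WT. The causes were not tested.

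All genes called without cytokines numbered 3617 (527 to 3783 with each library left out), 2266 in the 4 libraries alone and 5602 without both dKO libraries numbered 2. With cytokines they numbered 5343 (1621 to 5523). For cytokines in dKO they numbered 872 (130 to 731), 1734 in DESeq2, 3769 with the block, 1 in the 4 libraries alone and 1339 without both dKO libraries numbered 2. In WT they numbered 2733 (413 to 2749), 5943 with the block, 4585 alone and 4417 without both. For the interaction they numbered 0 (0 to 41), 372 in DESeq2, 75 with no filter, 947 with the block and 193 without both.

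Of the recomputed log2 changes of the 10 genes, 617 kept direction and call, 61 lost the call, 31 gained it and 28 changed sign, all of them in changes that had not passed. The sign changes of Mmp2 for cytokines in dKO were -0.0059 in DESeq2, -0.0065 with RLE scaling, -0.13 on library totals, -0.046 with the block, -0.010 in the 4 libraries alone and -0.24 without both dKO libraries numbered 2 (-0.62 to 0.43 with each library left out). Mmp10 between genotypes with cytokines gave -0.75 without both (-0.76 to 2.36), Adamts1 for cytokines in WT -0.14 on library totals (-0.015 to 0.15), and the interaction of Timp3 -0.032 with the block and -0.33 without both (-0.41 to 0.36). With libraries left out the ranges were -0.51 to 0.31 for Adamts1 between genotypes without cytokines, and with cytokines -0.75 to 0.36 for Mmp2 and -2.87 to 0.28 for Mmp13. They were -0.57 to 0.036 for Timp2 with cytokines in dKO and -0.19 to 0.26 for the interaction of Mmp14. Library totals in place of TMM moved the median of all genes by up to 0.21 (log2). Of 40 group means, 7 moved by more than 1 SD on library totals, all in WT. A fit that leaves 1 library in a group assumes that it varies like the others.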
